A study of Mus musculus with 4 samples.

Results

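The genes described here are the subunits and regulators of the proteasome, measured in heart muscle cells of adult mice on 4 microarrays. A gene was a member if its symbol began with Psma, Psmb, Psmc, Psmd, Psme, Psmf or Psmg and its probe stood well above background on 2 or more of the 4 arrays. Of 57 such symbols in the gene table, 50 had a named probe and 48 passed, out of 12542 genes that passed in all. All 48 were well above background on all 4 arrays. The other two were Psma8, a testis form of a core subunit, and Psmb11, the thymus-specific catalytic subunit, which were not well above background on any array. Psmc3ip and Psme3ip1 carry the prefixes but encode binding partners rather than subunits.

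All animals were male mice, 10 weeks of age, bred from an αMHC-CRE parent and a parent with the Yamanaka factors (OSKM) under tetO, so the control animals carried the same transgenes. The αMHC promoter is active in heart muscle cells, and the labels give no strain. The 2 control arrays hold RNA of cells isolated after 2 days of PBS, and the 2 doxycycline arrays RNA of cells isolated after 2 days of doxycycline, which was injected into the abdomen to start reprogramming in the animal. Neither doxycycline in animals without the factors nor untreated animals were analysed here, so the drug and the factors cannot be told apart. The labels do not say whether the arrays of a group came from separate animals, so p-values measure only the spread between these arrays, which may be technical.

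The proteasome degrades proteins that have been tagged with ubiquitin. Its 20S core is a barrel in which outer alpha rings gate the entry and inner beta rings carry the catalytic sites, and its 19S regulator binds the ubiquitin chain, removes it and threads the unfolded substrate into the core with a ring of ATPases. Under interferon, and constantly in many blood cells, the catalytic subunits Psmb5, Psmb6 and Psmb7 are replaced by Psmb8, Psmb9 and Psmb10, which make the immunoproteasome and favour peptides for MHC class I. In heart muscle the proteasome takes part in the turnover of contractile proteins. When it is impaired, the factor Nfe2l1 raises the transcription of many subunits together.

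The promoters of the 3 immunoproteasome genes and of 2 of the subunits they replace are printed because those genes read in opposite directions on the same arrays, and that of Psmd4 because it had the largest difference of a 19S subunit. Each runs from 250 bases before the start of the gene to 50 after it, 5′ to 3′ on the strand of the gene, from RefSeq on GRCm38.p6. Psmb5 lies at chr14:54617946-54618245 on the minus strand and Psmb6 at chr11:70525107-70525406 on the plus strand. Psmb8 lies at chr17:34197945-34198244 on the plus strand, Psmb9 at chr17:34187281-34187580 on the minus strand and Psmb10 at chr8:105938343-105938642 on the minus strand. Psmd4 lies at chr3:95042565-95042864 on the minus strand. Capitals mark an ARE (Psmb5, Psmb6), a GAS (Psmb8), a CCAAT box (Psmb9, Psmd4), an E-box (Psmb10) and an ISRE (Psmd4).
Psmb5: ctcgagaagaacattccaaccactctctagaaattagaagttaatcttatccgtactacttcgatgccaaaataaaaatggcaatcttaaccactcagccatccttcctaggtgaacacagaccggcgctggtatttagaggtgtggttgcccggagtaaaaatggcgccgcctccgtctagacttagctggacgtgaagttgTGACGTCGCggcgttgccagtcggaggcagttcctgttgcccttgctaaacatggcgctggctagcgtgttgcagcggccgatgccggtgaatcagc
Psmb6: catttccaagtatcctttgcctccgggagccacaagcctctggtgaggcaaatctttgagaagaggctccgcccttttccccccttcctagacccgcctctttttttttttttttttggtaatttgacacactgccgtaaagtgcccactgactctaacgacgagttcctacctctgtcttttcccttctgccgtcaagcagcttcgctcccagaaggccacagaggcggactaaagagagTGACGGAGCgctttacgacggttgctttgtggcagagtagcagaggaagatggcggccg
Psmb8: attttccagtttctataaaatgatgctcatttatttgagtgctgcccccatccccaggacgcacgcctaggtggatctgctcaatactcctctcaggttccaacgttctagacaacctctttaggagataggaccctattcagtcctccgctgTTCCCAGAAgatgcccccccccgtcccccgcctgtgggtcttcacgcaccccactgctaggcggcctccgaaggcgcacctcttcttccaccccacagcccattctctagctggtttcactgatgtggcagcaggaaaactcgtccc
Psmb9: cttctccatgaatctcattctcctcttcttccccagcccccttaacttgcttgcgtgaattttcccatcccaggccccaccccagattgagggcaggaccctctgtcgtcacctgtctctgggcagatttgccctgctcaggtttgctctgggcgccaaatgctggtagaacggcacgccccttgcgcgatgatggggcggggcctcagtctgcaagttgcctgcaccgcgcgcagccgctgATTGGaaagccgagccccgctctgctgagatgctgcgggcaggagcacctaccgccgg
Psmb10: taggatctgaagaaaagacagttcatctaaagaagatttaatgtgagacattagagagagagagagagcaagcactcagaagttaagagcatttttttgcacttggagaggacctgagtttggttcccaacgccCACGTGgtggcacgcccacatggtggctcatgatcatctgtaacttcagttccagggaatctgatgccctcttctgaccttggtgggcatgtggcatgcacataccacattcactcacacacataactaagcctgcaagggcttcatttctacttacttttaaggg
Psmd4: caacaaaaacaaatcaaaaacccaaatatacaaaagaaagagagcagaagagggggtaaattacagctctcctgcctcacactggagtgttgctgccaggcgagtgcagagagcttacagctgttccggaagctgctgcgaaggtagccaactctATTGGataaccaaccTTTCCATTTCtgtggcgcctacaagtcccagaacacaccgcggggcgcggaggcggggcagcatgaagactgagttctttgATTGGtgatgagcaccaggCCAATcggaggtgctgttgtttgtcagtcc

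The motifs were searched as letters on both strands. The ARE, the element read by Nfe2l1 and Nfe2l2 with small Maf proteins, was TGACNNNGC. The CCAAT box, read by NF-Y, was CCAAT. The ISRE of the interferon response was GAAA, any 2 bases and GAAA, the GAS of the interferon gamma response was TTCNNNGAA, and the E-box was CACGTG. Of the members, 41 had an entry. An ARE was found in 6 of them (14.6%), against 14.0% of the promoters of 27025 genes, and a CCAAT box in 15 (36.6%), against 41.1%. An ISRE was found in 5 (12.2%) against 3.99%, a GAS in 3 (7.32%) against 9.55%, and an E-box in 5 (12.2%) against 8.09%. A match is a run of letters and not a site in use. The ARE of Psmb5 begins 47 bases before the start and that of Psmb6 begins 9 bases before it. The GAS of Psmb8 lies 97 bases before the start and the ISRE of Psmd4 80 bases before it. Psmb9 and Psmb8 are neighbours, with Tap1 between them and Tap2 after Psmb8, and Psme1 and Psme2 are separated only by Emc9. No entry was found for Psmb1, Psmb2, Psmb7, Psmc3, Psmd3, Psmd7 and Psmg2.

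The level of a gene is the log2 processed intensity of its brightest probe minus the 75th percentile of the spots on that array. It orders the arrays for 1 gene and says nothing about which of 2 genes is more abundant. A difference is the mean level of the doxycycline arrays minus that of the control arrays, in log2 units, with its standard error (SE) from the limma fit over all genes. That percentile was 112 on control array 1, 171 on control array 2, 248 on doxycycline array 1 and 193 on doxycycline array 2 in intensity units. Between 50.6% and 51.8% of the spots of an array stood well above background, and none was saturated. Control array 1 stood apart from the rest. Its median coefficient of variation over probes spotted several times was 9.26%, against 4.08% to 4.94% on the others, and it correlated with them at 0.910 to 0.934 over all genes, against 0.948 to 0.971 among the others. The difference of each member is therefore given with all 4 arrays and also without it. All arrays lay on 1 slide, control at positions 1 and 2 and doxycycline at 3 and 4, so treatment and position on the slide cannot be told apart. All 15 heart muscle markers on the list, Myh6, Tnnt2 and Actc1 among them, were measured well above background, with median levels of 6.86, 7.87, 7.37 and 7.58 in that order of arrays.

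No proteasome gene passed the test. Of the 12542 genes, 0 (0%) had an adjusted p under 0.05, in either direction, by limma with Benjamini-Hochberg adjustment, and 886 (7.06%) had an unadjusted p under 0.05. Of the 48 members 0 passed at either level, and their smallest adjusted p was 0.74, for Psmb10. At this size, 2 against 2, the smallest p of a permutation test is 0.333. The mean of the doxycycline arrays was above that of the control arrays for 35 members and below it for 13, against 45.2% and 54.8% of all genes. The median difference was 0.30 over the members and -0.06 over all genes. Both doxycycline arrays lay above both control arrays for 9 members and below both for 4, so 13 of 48 had groups that did not overlap. Over all genes that share was 35.3%, made up of 14.5% above and 20.8% below. The share of the members, 13 of 48, is therefore not above the background. For 40 of the 48 the gap between the control arrays was larger than the difference between the groups, as it was for 68.8% of all genes.

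**Figure D1:**
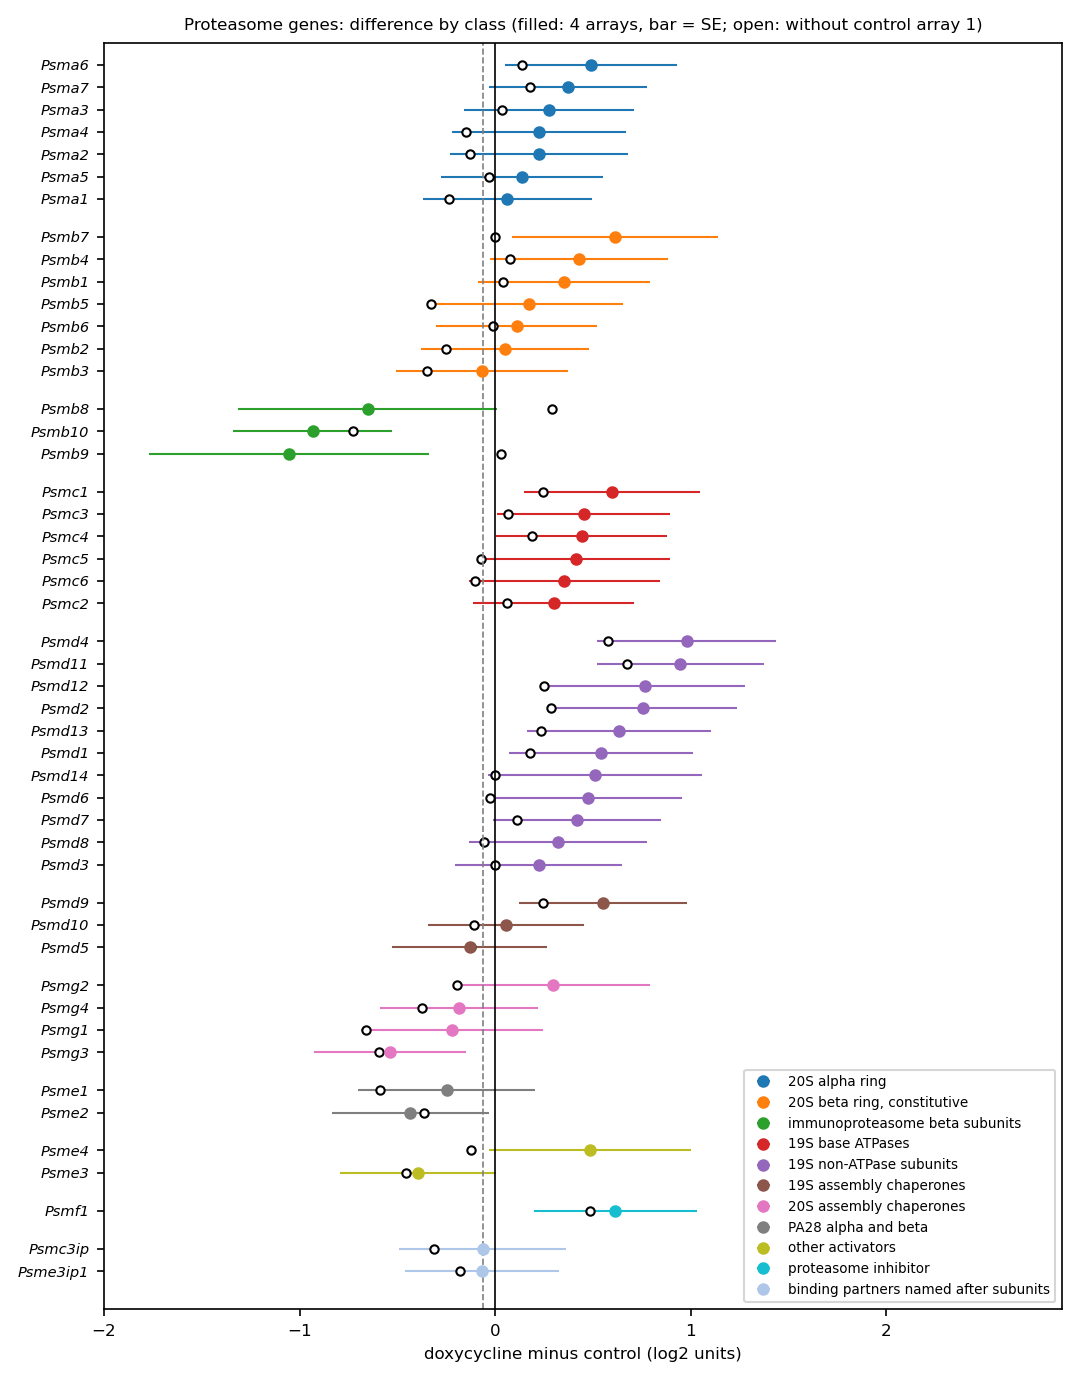
Difference between the doxycycline and control arrays for each of the 48 members, by class, in log2 units. Filled points and bars are the difference over 4 arrays and its SE, open points the difference without control array 1, and the dashed line the median of all genes at -0.06. The 20S and 19S subunits lie mostly to the right of 0 and move to the left without control array 1.

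The 31 constitutive subunits of the 20S core and 19S regulator shared 1 pattern across the arrays. Control array 1 was below control array 2 for 31 of 31 genes, with gaps of -1.23 to -0.24 log2 units and a median of -0.71 (53.4% of all genes were lower there). Control array 1 was the lowest of the 4 arrays for 30 of 31, against 37.2% of all genes. Doxycycline array 1 was above doxycycline array 2 for 31 of 31, against 49.7%. The doxycycline mean was above the control mean for 30 of 31, with a median difference of 0.42. Without control array 1 the mean of the doxycycline arrays was above control array 2 for 18 of 31 (41.6% of all genes), with a median of 0.03 beside -0.11 over all genes. The share above thus rested in part on control array 1. Without it the mean stayed above control array 2 for 13 of 17 subunits of the 19S regulator (median 0.11). It did so for 5 of 14 subunits of the 20S core (median -0.02). Without doxycycline array 1 the median over the 31 genes was 0.19. Both doxycycline arrays were above control array 2 for 7 of 31 (28.4% of all genes) and both below it for 5 of 31 (44.3%). The heart muscle markers moved in part with this pattern: for 13 of 15 control array 1 was below control array 2, and for 11 it was the lowest of the 4 arrays. Their signal, summed in units of the 75th percentile of the array, was 5280 and 6558 in the controls and 4321 and 5048 with doxycycline. Without control array 1, the mean of the doxycycline arrays was below control array 2 for 13 of 15 of them, with a median of -0.43. Their part in the result was not tested. In bulk RNA, fewer cells of a type and less RNA per cell cannot be told apart.

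**Figure D2:**
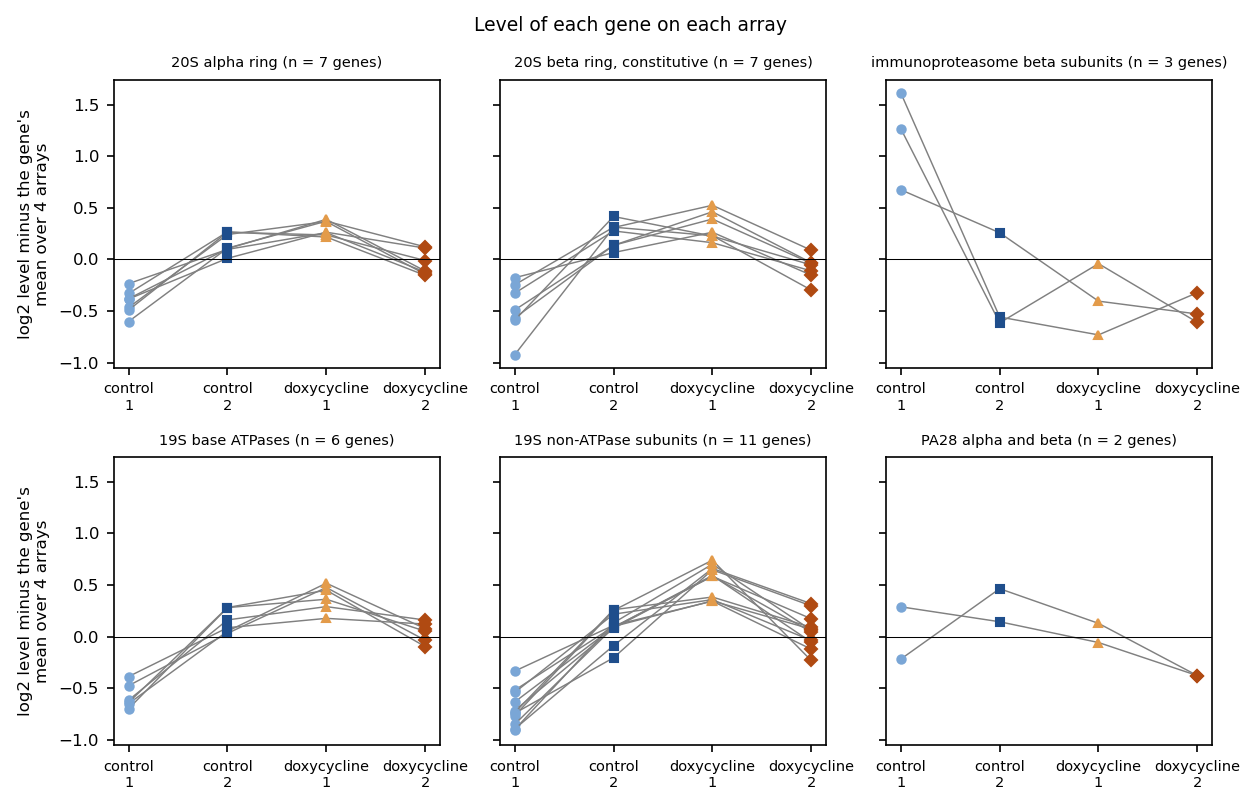
Level of each gene on each array minus the mean of that gene over the 4 arrays, in log2 units, for 6 classes. Each line joins the values of 1 gene across the arrays, which have no order within a group. Control array 1 is low for the 20S and 19S subunits and high for the 3 immunoproteasome subunits.

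The 7 alpha subunits, which form the gated outer rings of the core, had differences from 0.06 to 0.49 with a median of 0.23, or -0.03 without control array 1. Psma6 had the largest difference. Its level was 3.10 and 3.81 in the controls and 4.07 and 3.82 with doxycycline, so doxycycline array 2 was only just above control array 2. Its difference was 0.49 ± 0.44 (SE, n = 2 arrays per group, adjusted p = 0.91), and 0.14 without control array 1. Psma7 was the other alpha subunit whose groups did not overlap, and it is named for that after its values were seen. Its level was 4.48 and 4.87 in the controls and 5.13 and 4.97 with doxycycline, a difference of 0.37 ± 0.41 (adjusted p = 0.94) that was 0.18 without control array 1. Psma1 had the smallest, with 3.60 and 4.20 in the controls and 4.15 and 3.78 with doxycycline, so the values interleave. Its difference of 0.06 ± 0.43 was -0.24 without control array 1. The differences of Psma2, Psma3, Psma4 and Psma5 were 0.22, 0.28, 0.23 and 0.14, and all 4 had overlapping groups. Leaving out control array 1 gave -0.13, 0.03, -0.15 and -0.03.

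The 7 constitutive beta subunits had differences from -0.07 to 0.61 with a median of 0.17, or -0.01 without control array 1. Of these, 0 of 7 had groups that did not overlap, beside 35.3% of all genes. Psmb7, which carries the trypsin-like site, had the largest. Its level was 2.50 on control array 1, against 3.74 on control array 2, 3.95 on doxycycline array 1 and 3.52 on doxycycline array 2. The difference was 0.61 ± 0.53 (adjusted p = 0.91) on all arrays and -0.0024 without control array 1. Psmb5, which carries the chymotrypsin-like site, was at 5.85 and 6.86 in the controls and 6.67 and 6.39 with doxycycline, a difference of 0.17 ± 0.48 that was -0.33 without control array 1. Psmb6, which carries the caspase-like site, was at 5.38, 5.63, 5.82 and 5.41 in the same order, a difference of 0.11 ± 0.41 that was -0.01 without it. Psmb3, a subunit without a catalytic site, was the only one of these 31 genes with a mean below the control, by -0.07 ± 0.44, or -0.35 without control array 1, and this sign turned under median scaling and under normexp. The non-catalytic subunits Psmb1, Psmb2 and Psmb4 had differences of 0.35, 0.05 and 0.43, and of 0.04, -0.25 and 0.08 without control array 1.

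All 6 ATPases of the 19S base, the ring that unfolds the substrate and opens the core, were above the control on average. Their differences ran from 0.30 to 0.60 with a median of 0.43, or 0.06 without control array 1. Psmc1 had the largest, with levels of 5.31 and 6.01 in the controls and 6.48 and 6.04 with doxycycline. Doxycycline array 2 was only just above control array 2, and the difference was 0.60 ± 0.45 (adjusted p = 0.90), or 0.25 without control array 1. A dimmer probe of Psmc1 gave 0.92. Psmc2 had the smallest difference, 0.30 ± 0.41 (adjusted p = 0.96), and groups that did not overlap: 4.04 and 4.51 against 4.60 and 4.55. Its difference was 0.06 without control array 1. Psmc3, Psmc4, Psmc5 and Psmc6 had differences of 0.45, 0.44, 0.42 and 0.36, and their groups overlapped. These became 0.06, 0.19, -0.07 and -0.10 without control array 1.

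The 11 subunits of the 19S regulator that are not ATPases had the highest class median among the subunits, 0.54, with differences from 0.22 to 0.98 and 11 of 11 above the control on average. Without control array 1 the median was 0.18 and 9 of 11 stayed above. Psmd4, a receptor for ubiquitin chains, was at 4.15 and 4.96 in the controls and at 5.71 and 5.37 with doxycycline. Both doxycycline arrays were above both control arrays, and the difference was 0.98 ± 0.46, or 1.97-fold (unadjusted p = 0.071, adjusted p = 0.77). Against control array 2 alone it was 0.58. Psmd11, a lid subunit that bridges the regulator and the core, was at 0.996 and 1.53 in the controls and 2.39 and 2.04 with doxycycline. Its difference was 0.95 ± 0.43, or 1.93-fold (unadjusted p = 0.064, adjusted p = 0.75), and 0.68 without control array 1. These were the members with the largest differences upward, and neither passed the test.

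Psmd2, a scaffold of the base that binds shuttle factors, is named after its values were seen as the third of this class whose groups did not overlap. It was at 3.67 and 4.61 in the controls and at 5.11 and 4.70 with doxycycline, a difference of 0.76 ± 0.48 (adjusted p = 0.88) that was 0.29 without control array 1. Psmd3, a lid subunit, had the smallest difference of the class. Its level was 4.68 and 5.13 in the controls and 5.36 and 4.90 with doxycycline, a difference of 0.22 ± 0.43 that was 0.0018 without control array 1. Psmd14, the metalloprotease that cuts ubiquitin from the substrate, was at -0.07 and 0.95 in the controls and at 1.44 and 0.47 with doxycycline. Its groups overlapped, and its difference of 0.51 ± 0.55 was 0.00085 without control array 1. Its doxycycline arrays lay 0.97 log2 units apart, the widest such gap among the 31 subunits. The remaining scaffold and lid subunits Psmd1, Psmd6, Psmd7, Psmd8, Psmd12 and Psmd13 had differences of 0.54, 0.48, 0.42, 0.32, 0.77 and 0.63, with overlapping groups. Leaving out control array 1 gave 0.18, -0.02, 0.11, -0.06, 0.25 and 0.24.

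The 3 immunoproteasome subunits read the other way. All 3 were below the control on average, with a median difference of -0.93, and for all 3 the highest array was control array 1, against 34.7% of all genes. Without control array 1 the median was 0.03. Psmb8 was at 2.51 on control array 1, against 0.63 on control array 2, 1.204 on doxycycline array 1 and 0.64 on doxycycline array 2. Its difference was -0.65 ± 0.66 (adjusted p = 0.93), and it was 0.29 without control array 1. Psmb9 was at 2.59 on control array 1, against 0.42, 0.24 and 0.65 on the others, a difference of -1.05 ± 0.72 (adjusted p = 0.89) that was 0.03 without it. For both genes 1 array was high and the other three lay within 0.57 log2 units of each other, so the sign of the difference came from that array.

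Psmb10 differed from its partners in that both control arrays were above both doxycycline arrays. Its level was 4.34 and 3.92 in the controls and 3.26 and 3.13 with doxycycline. The difference was -0.93 ± 0.41, or 1.91-fold lower, with an unadjusted p of 0.057 and an adjusted p of 0.74, the smallest among the members. Without control array 1 it was -0.72. It did not pass the test.

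Each immunoproteasome subunit takes the place of 1 constitutive subunit, so the level of each was set against that of its counterpart within an array and compared between arrays. The mean level of Psmb8, Psmb9 and Psmb10 minus that of Psmb5, Psmb6 and Psmb7 was -1.43 on control array 1, -3.75 on control array 2, -3.91 on doxycycline array 1 and -3.63 on doxycycline array 2. Control array 1 was thus 2.20 to 2.48 log2 units above the others, which spanned 0.28 in this mean. In the single pairs of Psmb8, Psmb9 and Psmb10 those other arrays spanned 0.76, 0.82 and 0.88. The difference of the mean between the groups was -1.18, and -0.02 without control array 1. For Psmb8 against Psmb5 it was -0.82, and 0.62 without control array 1. For Psmb9 against Psmb6 it was -1.17, and 0.04 without it. For Psmb10 against Psmb7 it was -1.55, and it was still -0.72 without it.

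**Figure D3:**
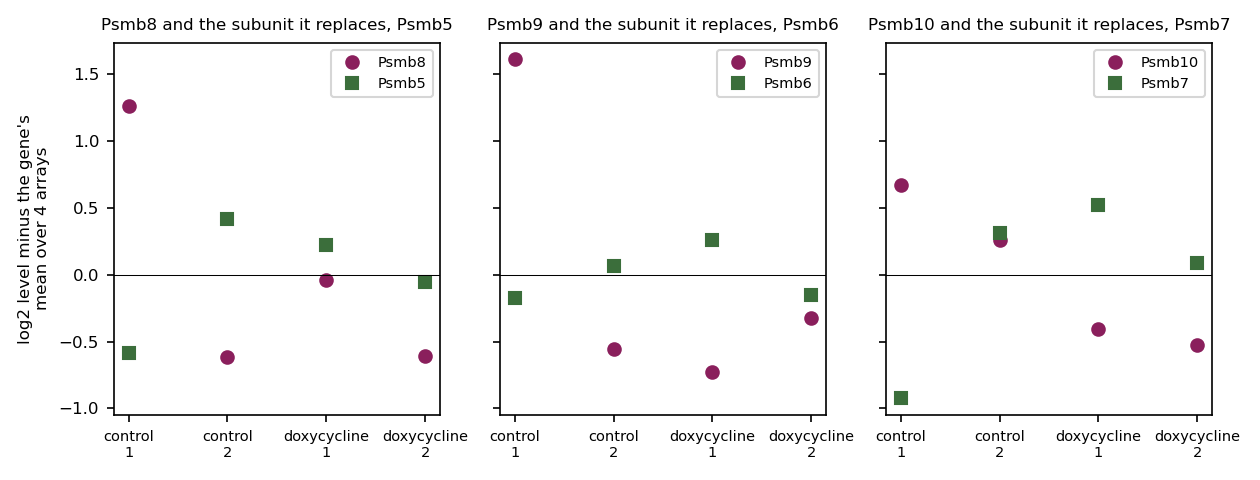
Level of each immunoproteasome subunit and of the constitutive subunit it replaces, minus the mean of that gene over the 4 arrays, in log2 units, on each array. On control array 1 the immunoproteasome subunit is the higher point in all 3 panels, and Psmb10 is the only one of the 3 whose doxycycline arrays are both below control array 2.

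Markers of other cells moved with control array 1. Of the 14 leukocyte markers measured, 13 had their highest level there, and their median level was 1.51 on control array 1, -0.27 on control array 2, -0.32 on doxycycline array 1 and -0.41 on doxycycline array 2. Their summed signal, in units of the 75th percentile of the array, was 43.0 and 13.3 in the controls and 13.9 and 11.2 with doxycycline. Ptprc, the pan-leukocyte surface phosphatase, and Cd53 were well above background on 1 array at most. The endothelial markers were highest on control array 1 for 10 of 12, with summed signals of 659 and 208 in the controls and 228 and 286 with doxycycline. The fibroblast markers were highest there for 12 of 12, with summed signals of 237 and 75.01 in the controls and 83.2 and 90.4 with doxycycline. Most of this sum was the signal of Dcn. The median difference of the fibroblast markers was -2.31. For 8 of 12 both doxycycline arrays were below both controls, beside 20.8% of all genes, with 0 past the test. Postn, among these 8, was well above background on only 2 arrays. Its intensities were 112 and 40.7 in the controls and 9.93 and 12.9 with doxycycline, so it may have passed the filter through the controls alone. For the leukocyte markers the median difference was -0.99, with 7 of 14 below in the same way. The red cell markers were highest there for 6 of 7, with summed signals of 345 and 72.8 in the controls and 49.5 and 58.7 with doxycycline. Their part in the levels of Psmb8, Psmb9 and Psmb10 was not tested. Without control array 1 the median difference was -0.21 for the leukocyte, 0.64 for the endothelial and -1.39 for the fibroblast markers. Of the 5 neutrophil markers measured, 3 were above the control on average (S100a8, S100a9 and Retnlg, with differences of 3.67, 3.26 and 2.33) and 2 below it (Csf3r and Camp, with -0.33 and -0.34), and 0 passed the test. Leaving out control array 1 gave 4.39 for S100a8, and it turned the sign of Csf3r (0.12) and Camp (0.53). The probes of S100a8 and Retnlg were dim in the controls, at 24.6 and 13.6 and at 12.98 and 10.06. That of Camp was dim on all arrays, at 7.75 to 17.2. The sizes of the S100a8 and Retnlg differences and the sign of Camp thus rest on dim values. Retnlg and Camp were well above background on 3 arrays. S100a9 was brighter, at 125.9 and 88.8 in the controls. Cxcr2, Mmp9, Ngp and Ltf, also on the list, were well above background on 1 array at most. The summed signal of the 5 markers measured was 72.3 and 38.6 in the controls and 51.3 and 54.3 with doxycycline, and most of it was that of Csf3r. Their median level was -2.19 and -3.65 in the controls and 1.61 and -0.11 with doxycycline.

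**Figure D4:**
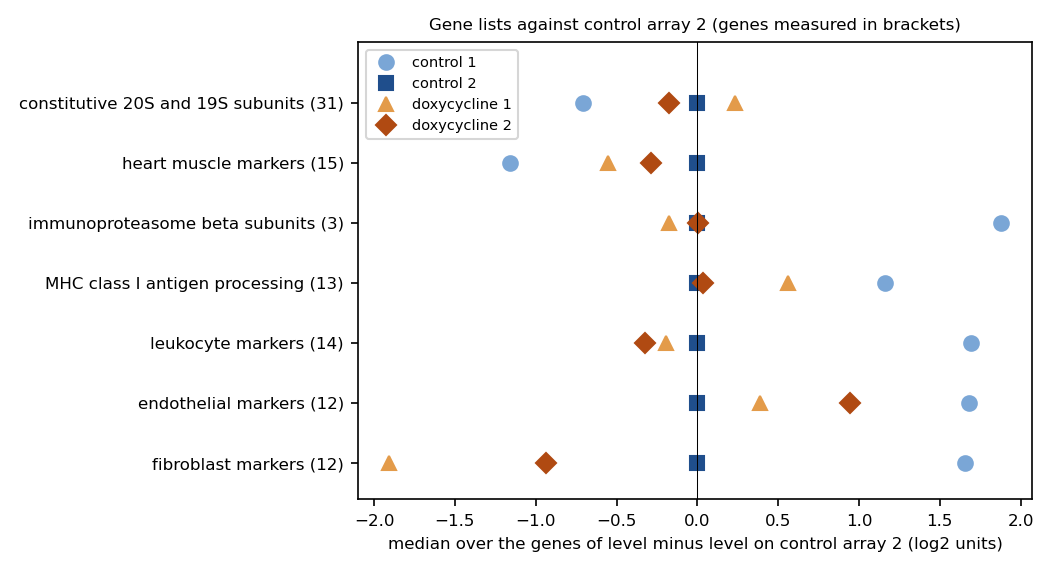
Median, over the genes of a list, of the level on an array minus the level on control array 2, in log2 units. Control array 1 lies below control array 2 for the 20S and 19S subunits (-0.71) and heart muscle markers (-1.16) and above it for the immunoproteasome subunits (1.88), MHC class I genes (1.16), leukocyte markers (1.69), endothelial markers (1.68) and fibroblast markers (1.65).

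The genes of MHC class I antigen processing, some of which share the interferon response with the immunoproteasome, were measured for 13 of 13 on the list. Of these, 0 passed the test. Control array 1 was the highest for 11 of 13. The median difference was -0.17, with 4 above and 9 below the control on average, and 0.27 without control array 1. Tap1, a subunit of the peptide transporter and the neighbour of Psmb8 and Psmb9, was at -1.30 and -3.43 in the controls and at -2.07 and -2.66 with doxycycline, so its doxycycline arrays lay between the controls. It is named for its position, and its difference was 0.00080 with all arrays and 1.06 without control array 1. The probe of Tap1 was dim, with intensities of 45.5 and 15.8 in the controls and 58.9 and 30.5 with doxycycline. The value of 1.06 rests on the 15.8 of control array 2. Erap1, which trims peptides in the endoplasmic reticulum, was at -2.70 and -2.82 in the controls and at -3.47 and -3.26 with doxycycline. Its difference was -0.61 ± 0.39 (adjusted p = 0.88), or -0.55 without control array 1, and its probe was dim, with intensities of 17.3 to 24.3. H2-Q4, Pdia3 and Calr had differences of -0.68, -0.38 and -0.34, and of -0.11, -0.30 and -0.53 without control array 1.

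Psme1 and Psme2 form PA28 alpha and beta, an interferon-inducible cap that opens the core without ATP. Psme1 was at 3.99 and 4.67 in the controls and at 4.33 and 3.83 with doxycycline, so the groups overlapped, and its difference was -0.25 ± 0.45 (adjusted p = 0.97), or -0.59 without control array 1. Psme2 was at 4.89 and 4.75 in the controls and at 4.55 and 4.23 with doxycycline, both below the controls. Its difference was -0.43 ± 0.40 (adjusted p = 0.92), a dimmer probe gave -0.45, and without control array 1 it was -0.36. Unlike Psmb8 and Psmb9, neither stood out on control array 1, where the gap to control array 2 was -0.68 for Psme1 and 0.14 for Psme2. Under median scaling Psme1 had a positive sign.

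Of the other activators, Psme3, the nuclear PA28 gamma, was at 1.61 and 1.73 in the controls and at 1.41 and 1.14 with doxycycline. Both doxycycline arrays were below the controls, and the difference was -0.39 ± 0.40 (adjusted p = 0.93), or -0.46 without control array 1. Psme4, a large single-chain activator, was at -0.31 on control array 1 and at 0.91, 0.92 and 0.66 on the others, a difference of 0.49 ± 0.52 (adjusted p = 0.94) that was -0.12 without control array 1. Psmf1, which inhibits the 20S core in the test tube, was at -0.72 and -0.46 in the controls and at 0.27 and -0.22 with doxycycline. Its groups did not overlap, and the difference was 0.62 ± 0.42 (adjusted p = 0.89), or 0.49 without control array 1.

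The chaperones that assemble the core and the base had lower medians than the subunits they assemble. For the 4 chaperones of the 20S core the median difference was -0.20, and -0.48 without control array 1, with 4 of 4 then below the control. Psmg3 was at 0.71 and 0.82 in the controls and at 0.22 and 0.24 with doxycycline, so both groups were tight and apart. Its difference was -0.54 ± 0.39 (adjusted p = 0.89), and -0.59 without control array 1. Psmg1 was at 2.57 and 3.45 in the controls and at 2.64 and 2.93 with doxycycline, a difference of -0.22 ± 0.46 (adjusted p = 0.98) that was -0.66 without control array 1. A dimmer probe of Psmg1 gave 0.63, with a control array 1 level of -1.32 against 1.04 on control array 2. Psmg2 was at 0.40 and 1.37 against 0.90 and 1.46, a difference of 0.29 ± 0.50, and Psmg4 had a difference of -0.19. They were -0.19 and -0.37 without control array 1. Whether chaperones and subunits differ from each other in their response was not tested.

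Of the 3 chaperones of the 19S base, Psmd9 was at -0.62 on control array 1, at the 75th percentile on control array 2 and at 0.37 and 0.12 on the doxycycline arrays. Its difference was 0.55 ± 0.43 (adjusted p = 0.90), but its second probe read -0.37, so the direction depends on the probe. The brighter probe gave 0.24 and the second -0.55 without control array 1. Psmd10, also known as gankyrin, was at -0.70 and -0.36 in the controls and at -0.45 and -0.49 with doxycycline, with a difference of 0.06 ± 0.40 and of -0.24 on its second probe. These became -0.11 and -0.35 without control array 1. Psmd5 was at -0.17 and -0.18 in the controls and at -0.44 and -0.18 with doxycycline, a difference of -0.13 ± 0.40, or -0.12 without control array 1. Psmc3ip, a partner in meiotic recombination, had a difference of -0.06 and Psme3ip1, a partner of PA28 gamma, one of -0.07. Leaving out control array 1 gave -0.31 and -0.18. In all, 11 members had more than 1 probe, and the sign differed between the probes of Psmd9, Psmd10 and Psmg1.

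**Figure D5:**
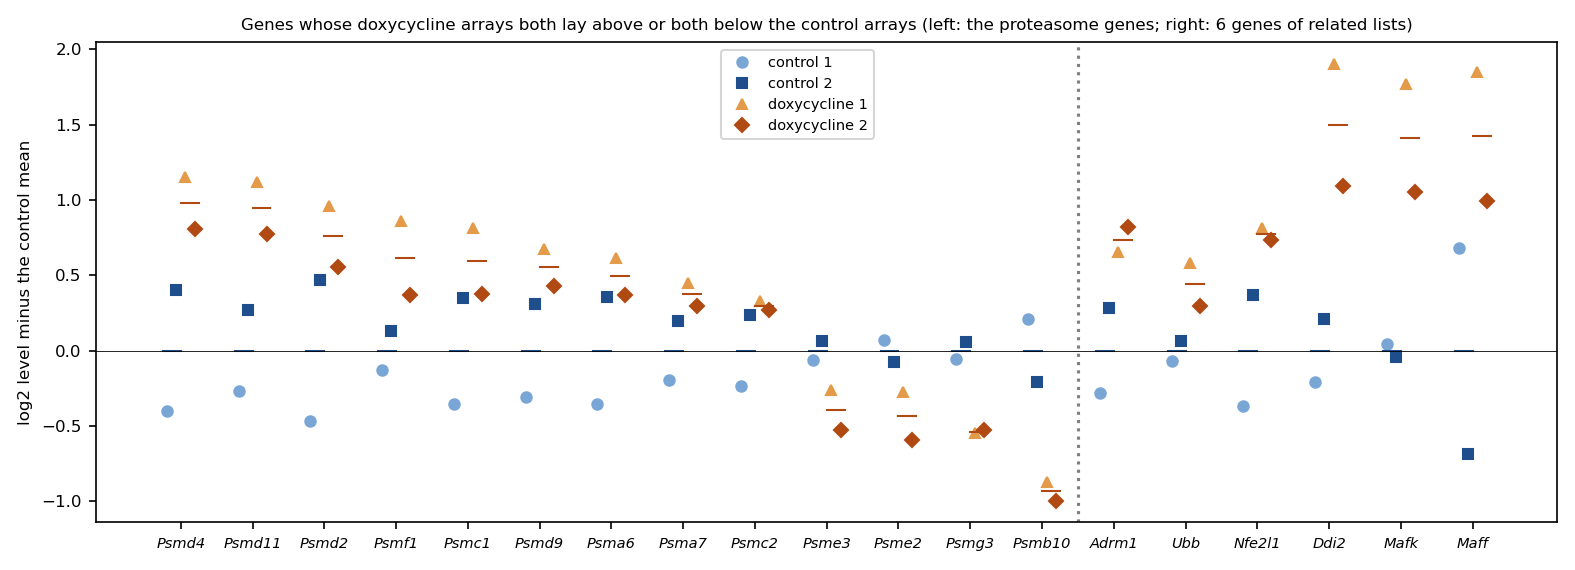
Level on each array minus the control mean, in log2 units, for the 13 members whose doxycycline arrays were both above or both below the control arrays. Also shown are 6 genes of related lists, picked after their values were seen, all with both doxycycline arrays above the controls. Genes of these lists with both below, such as Txnl1 and Ube3c, are not shown. Short lines are the group means. Psmd4 and Psmd11 lie highest among the members at 0.98 and 0.95, and Psmb10 lowest at -0.93.

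The regulators of proteasome gene transcription had differences from -0.73 to 1.496. Of the 12 measured, 5 had doxycycline arrays both above the controls and 1 both below, beside 14.5% and 20.8% of all genes. An unadjusted p under 0.05 was found for 3 of 12, beside 7.06% of all genes, and 0 passed after adjustment. Ddi2, the protease that frees Nfe2l1 from the membrane, was at -1.18 and -0.76 in the controls and at 0.93 and 0.12 with doxycycline. Its difference was 1.496 ± 0.46 (unadjusted p = 0.015, adjusted p = 0.51), or 1.29 without control array 1. Mafk, a small Maf protein that pairs with Nfe2l1 and Nfe2l2 at the ARE, was at 0.42 and 0.34 in the controls and at 2.15 and 1.44 with doxycycline, a difference of 1.41 ± 0.44 (adjusted p = 0.51), or 1.46 without control array 1. Maff, of the same family, was at 0.67 and -0.70 against 1.84 and 0.98, a difference of 1.42 ± 0.59 (adjusted p = 0.69), or 2.11 without control array 1. Nfe2l1 itself was at -1.33 and -0.59 in the controls and at -0.15 and -0.23 with doxycycline, a difference of 0.78 ± 0.44 (adjusted p = 0.84) that was 0.41 without control array 1. The median over the list was 0.14, and 0.40 without control array 1.

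Among the other genes of the pathway no gene passed the test either. Of 16 partners of the proteasome, 14 were above and 2 below the control on average, with a median of 0.22, or -0.06 without control array 1. Txnl1, a thioredoxin-like protein of the 19S regulator, was at -2.20 and -2.32 in the controls and at -3.59 and -3.21 with doxycycline. Its difference was -1.14 ± 0.40 (unadjusted p = 0.027, adjusted p = 0.60), or -1.09 without control array 1. Its probe was dim, with intensities of 24.5 and 34.3 in the controls and 20.6 and 20.9 with doxycycline. Adrm1, a ubiquitin receptor of the 19S regulator like Psmd4, was at 1.53 and 2.09 in the controls and at 2.46 and 2.63 with doxycycline. Its difference was 0.74 ± 0.42 (adjusted p = 0.84), or 0.46 without control array 1. Ubqln1, a shuttle for ubiquitinated proteins, had a difference of 0.89 with overlapping groups, and the ligase Ube3c one of -0.54 with doxycycline arrays below the controls. They were 0.50 and -0.70 without control array 1.

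Ubb, which encodes ubiquitin as a chain, was at 7.50 and 7.64 in the controls and at 8.15 and 7.87 with doxycycline, a difference of 0.44 ± 0.40 (adjusted p = 0.91). Its doxycycline arrays were above both controls, and without control array 1 the difference was 0.37. The activating enzymes Uba1 and Uba6 had differences of 0.27 and -0.57 with overlapping groups, and both were -0.01 without control array 1. Of the 9 genes for p97 and its cofactors, which extract ubiquitinated proteins from membranes and complexes, 8 were above the control on average with a median of 0.34, or -0.07 without control array 1. The cofactors Nploc4 and Ufd1, which act as a pair, had differences of 0.65 and 0.60 with groups that did not overlap, and 0.30 and 0.47 without control array 1. Faf1 and Vcp, which encodes p97 itself, had 0.47 and 0.40, and -0.12 and -0.11 without it.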

How the data were processed

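The 4 arrays are Agilent 1-colour arrays labelled with Cy3. Spot intensity was read from the scans by the authors with Feature Extraction 10.7.1.1, per the file headers. Their deposited processed intensity is linear, has the background subtracted, and was not scaled between arrays. The deposited median intensity of spot and background was used for 1 alternative, and other columns, the deposited flags for spots well above background or outlying, for filters. Further processing is not given in the sources used.

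Accessions of probes were named through a RefSeq table of GRCm38.p6. This named 27508 probes of 20886 genes. Outlying spots were left out, and 35 probes that lost all spots on an array were dropped. The log2 intensity was taken relative to its 75th percentile on the array, and the brightest probe kept per gene among those well above background on at least 2 arrays. Groups were tested two-sided with limma 3.58.1 in R 4.3.3 (lmFit and eBayes, 4.69 prior and 2 residual degrees of freedom), with Benjamini-Hochberg adjustment over 12542 genes and a threshold of 0.05. The procedure was tested on simulated data. The number of arrays limits the precision. Columns of other series numbered 0. Lists have no test here; they are described by counts and medians, and some of their genes are not reported here.

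Members and lists were chosen with earlier results of these data known. Genes named were all immunoproteasome and PA28 members, in other classes those with the highest and lowest difference and the smallest p, those whose probes differ in sign or that were not above background on a whole group, and up to 4 genes with the smallest p per related list; others are given to account for every member. Probe sequences were not used, so near-identical copies and pseudogenes of subunits cannot be told apart from them. Alternatives were normexp on the median signals (offset 50), quantile normalization, median scaling, no filter on dim probes or a filter over all 4 arrays, averaging the probes of a gene, a variance trend, the replicate number as a block, and leaving out each array.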

Additional observations from a re-analysis of the deposited data

How the results depend on the processing

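Of the members, 0 were called under any of the 12 alternatives, and the smallest adjusted p of a member was 0.11, without control array 2. Of 25 named members, 11 kept their direction in all 12. The variance trend and the replicate block cannot change a difference in this design, and the filters left those of the named members as they were. Only the other alternatives could therefore turn a sign. Counts of calls over all genes moved from 0 to 128 (95 higher, 33 lower) under median scaling. Leaving out an array gave from 0 to 171 calls, from 0 to 87 of them higher and from 0 to 84 lower: 0 when either control array was left out, 32 without doxycycline array 1, and 171 with its partner left out, where the lone array is assumed to vary like the other group. With the replicate number as a block there were 295 calls (152 higher, 143 lower), none a member. The deviations of arrays with the same number correlated at -0.085, and no label says that the numbers mark a shared animal or day.

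Median scaling shifted the median of all genes from -0.06 to 0.29. It gave medians of 0.57 for alpha subunits, 0.78 for 19S ATPases, 0.40 for 19S chaperones, 0.14 for 20S chaperones, 0.0064 for PA28 and 0.76 for the 31 constitutive subunits. Relative to all genes the constitutive median was 0.48 under both scalings, 0.63 under normexp, 0.35 under quantile normalization and 0.14 without control array 1. The median of all genes was -0.10 under normexp and -0.31 with no filter. Leaving out an array gave from 18 to 31 constitutive subunits above the control. Their median ran from 0.035 to 0.73, and that of all genes from -0.11 to -0.018. For classes these ranges were -0.028 to 0.57 (alpha), -0.011 to 0.67 (beta), 0.064 to 0.83 (19S ATPases), 0.18 to 1.02 (19S non-ATPases) and -0.48 to 0.11 (20S chaperones).

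Signs turned for Psmb3 (0.11) and Psme3ip1 (0.011) under normexp, and for Psma1 (-0.054) and Psmc3ip (0.11) under quantile normalization. Under median scaling they turned for Psmb3 (0.28), Psmc3ip (0.28), Psmd5 (0.22), Psme1 (0.10), Psme3ip1 (0.28) and Psmg1 (0.13), and with the mean of the probes for Psmd10 (-0.091) and Psmg1 (0.20). Leaving out an array turned the sign in these ranges: Psma1 -0.24 to 0.36, Psmb3 -0.35 to 0.21, Psmb7 -0.0024 to 1.23, Psmb8 -1.59 to 0.29, Psmb9 -2.14 to 0.031, Psmc3ip -0.31 to 0.19, Psmd3 -0.0090 to 0.46, Psmd5 -0.26 to 0.00086, Psmd10 -0.11 to 0.22, Psme1 -0.59 to 0.093, Psme3ip1 -0.18 to 0.046, Psme4 -0.12 to 1.096, Psmg1 -0.66 to 0.22 and Psmg2 -0.19 to 0.78. The cause was not tested. All 48 members were well above background on all arrays, and each group has 2 arrays.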
